A study of Arabidopsis thaliana with 48 samples.

Results

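The comparison set roots collected 12 and 24 h after transfer to fresh control medium (late, 6 arrays) against roots collected at 0 and 0.5 h (early, 6 arrays). These 12 arrays, of 48 in the series, were chosen by medium and time alone, and each of the 4 times had replicates numbered 1 to 3. Seedlings of Arabidopsis thaliana, for which the labels name no genotype, were 6 days old when the nylon screen they had grown on under continuous light was moved, and the 0 h roots were collected within minutes of that move. The other control roots were collected at 1, 2, 4 and 8 h, and a parallel series was moved to medium with 1 µM ACC, from which plants make the hormone ethylene. The comparison asks what a move to fresh medium and a day of further growth did to root transcripts without ACC, which is the baseline for that series. Age and time since transfer increase together here and cannot be told apart. The labels do not say that replicates came from separate cultures, so p-values cover only the variation among these samples, which may be technical.

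Moving a seedling bends and touches its roots and briefly changes their water, light and nutrient supply. In Arabidopsis such handling is known to induce transcription factor, calcium-sensor and calmodulin-like genes within minutes, and the induction is known to be short-lived. Growth goes on meanwhile: hair cells emerge behind the root tip, expansins and xyloglucan endotransglucosylases loosen their walls, and secreted class III peroxidases act on wall polymers. Because the seedlings grew in continuous light, no dawn or dusk separated the late from the early samples. Clock phase was not tested, and only 2 of 37 genes of a circadian clock list were matched.

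Transcript levels are probe set signals on the log2 scale as deposited, differences are late minus early from limma with replicate number as a block, and errors are standard errors (SE) with n = 6 arrays on each side. A probe set was called at an adjusted p under 0.05 (Benjamini-Hochberg, 22739 probe sets).

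The 12 arrays were alike. Pairwise correlations over the probe sets had a median of 0.983 both between late and early arrays and within a group, and ranged from 0.966 to 0.992. Arrays with the same replicate number had a median of 0.985 and arrays with different numbers 0.982. Replicate 3 at 12 h and replicate 3 at 0 h stood apart, with median correlations to the others of 0.978 and 0.977, and lay together at one end of the first principal component, which held 30.4% of the variance. On the second component these arrays lay far from each other, at -24.59 and 16.53. Root markers were present throughout: PYK10, the beta-glucosidase of root endoplasmic reticulum bodies, had log2 signals of 14.02 to 14.37 late and 14.03 to 14.57 early. The 3 measured shoot markers (LHCB4.1, LHCB4.2 and RCA) had a median level per array of 7.24 to 7.85 late and 7.56 to 8.69 early, with the highest value in replicate 2 at 0 h. The 3′ minus 5′ signal of GAPDH, a sign of RNA quality, averaged 0.76 ± 0.246 late and 0.765 ± 0.196 early (SD, n = 6 each; exact two-sided permutation p = 0.939), that of ubiquitin 0.706 ± 0.145 late and 0.691 ± 0.194 early (exact permutation p = 0.874). That of actin averaged 3.37 ± 0.219 late and 3.59 ± 0.289 early (exact permutation p = 0.175). Adjusted over the 3, the lowest p was 0.526, and the smallest raw p that 6 against 6 allows is 0.00216.

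No transcript passed the test between late and early control roots. Of 22739 probe sets, 0 were called (0%), and the lowest adjusted p was 0.179 (limma). An unadjusted p under 0.05 was found for 1705 (7.5%), of which 903 were higher (3.97%) and 802 lower (3.53%). The differences were small: their median size was 0.0748 on the log2 scale, their 90th percentile 0.214 and their 99th 0.511, and 17 probe sets differed by 1 or more. The 95% interval of a single difference, not adjusted for the number of probe sets, had a median half-width of 0.194. It lay within 1 log2 unit of 0 on both sides for 98.7% of the probe sets, and within 0.5 for 90.3%. Leaving out the 3 arrays of 0 h, which sets the late roots against 0.5 h alone, gave 6 calls, and leaving out replicate 3 gave 1.

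Among named genes the leading differences without overlap were modest, and most belonged to genes known here only by a locus code. They are described without a call and were chosen after their values were seen. They come from named genes whose 6 late and 6 early arrays did not overlap: the 4 largest differences each way, and some smaller ones. Probe sets without 1 gene symbol are left out, although some differed more, such as by -1.6, -1.28 and 1.09, also with no call. In all, 26 probe sets had every late array above every early one (0.114% of those tested) and 30 had every late array below (0.132%).

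AT1G70880 had log2 signals between 7.79 and 8.86 late (median 8.31) and between 7.09 and 7.53 early (median 7.43). All 6 late arrays exceeded all 6 early ones, by 0.91 ± 0.13 on average or 1.88-fold, and its adjusted p of 0.179 (limma) equalled the lowest of all probe sets; the difference was 0.883 without replicate 3. AT2G28270 was higher by 0.54 ± 0.13, with levels from 6.49 to 7.21 late and from 6.13 to 6.33 early. AT4G31330 was higher by 0.49 ± 0.11 and AT4G19370 by 0.47 ± 0.10. AT1G55265 and AT4G18090 were each higher by 0.43, and AGL62, a MADS-domain transcription factor known from endosperm, was higher by 0.32 ± 0.06, with levels of 5.68 to 5.86 late and 5.43 to 5.59 early.

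On the lower side, AT5G64850 had levels of 7.5 to 7.99 late (median 7.88) and 8.01 to 9.63 early (median 8.60), a difference of -0.93 ± 0.26. The late arrays lay close together, whereas the early ones spread widely: replicate 1 had 8.09 at 0 h and 8.01 at 0.5 h, next to the late values, while replicate 2 at 0.5 h had 9.63 and replicate 3 at 0 h had 9.41. MSRB6, a methionine sulfoxide reductase that repairs oxidised methionine, had 8.01 to 8.59 late (median 8.22) and 8.81 to 9.98 early (median 9.07), a difference of -0.90 ± 0.18 or 1.86-fold. UGT78D1, a flavonol rhamnosyltransferase, had 6.28 to 6.56 late (median 6.43) and 6.61 to 7.97 early (median 6.97), a difference of -0.73 ± 0.17. AT2G02630 had 6.51 to 6.98 late and 7.01 to 8.00 early, a difference of -0.57 ± 0.17, and AT5G58900 differed by -0.47 ± 0.10. SD1-29, an S-domain receptor kinase, had 6.3 to 6.77 late and 6.80 to 7.25 early, a difference of -0.43 ± 0.09. Each adjusted p of these 6 was between 0.48 and 0.592 (limma). Part of these differences came with replicate 3: without it they were -0.630 for AT5G64850, -0.583 for MSRB6 and -0.353 for UGT78D1.

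**Figure D1:**
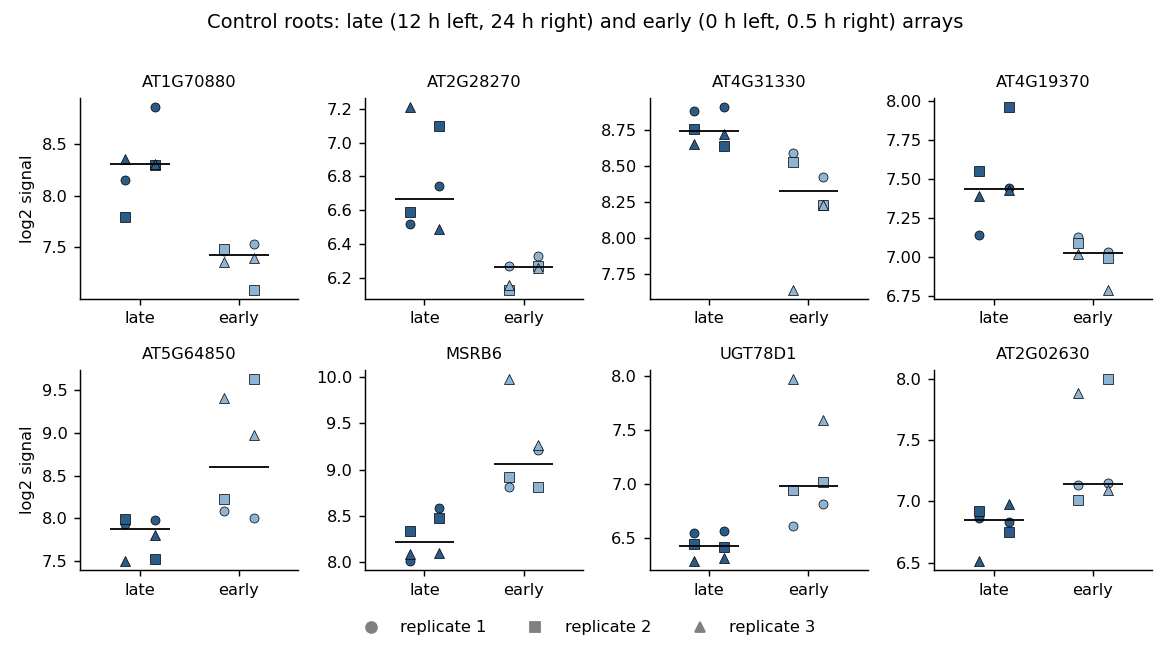
Log2 signal (vertical axis) of 8 genes in the 6 late and the 6 early control arrays, with the symbol giving the replicate number and the bar the median of 6. In the upper row the late arrays lie above the early ones and in the lower row below them, by 0.91 for AT1G70880 and by 0.93 for AT5G64850; none passed the test.

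Genes of cell wall growth had small positive medians and no calls. Of 27 measured class III peroxidases, 20 had a difference above 0 and the median was 0.15, against 11764 of 22739 probe sets above 0 and a median of 0.0044 overall. None was called (0% of all probe sets were), and 3 had an unadjusted p under 0.05, all higher. AT1G34510, in that list, had levels of 6.98 to 10.24 late and 6.17 to 8.57 early, a difference of 1.24 ± 0.51 with a 95% interval of 0.13 to 2.36 (adjusted p = 0.651), so arrays of both pools overlapped widely. AT3G49960 differed by 0.64 ± 0.25 and AT2G37130 by 0.53 ± 0.17. The 28 expansin, xyloglucan endotransglucosylase and cellulose synthase genes had a median of 0.088, with 20 above 0 and 0 called, and ranged from -0.767 for EXLA1, an expansin-like gene, to 0.643 for XTH26, a root hair xyloglucan endotransglucosylase. Without replicate 3 EXLA1 was at -0.324, and without replicate 3 at 12 h XTH26 was at 0.424.

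The 5 measured root hair genes, of 53 in the list, had late and early levels that overlapped. XTH26 had 5.89 to 7.67 late and 5.25 to 6.22 early (difference 0.64 ± 0.25). EXPA18, a root hair expansin, differed by 0.51 ± 0.28, and EXPA7, another, had 8.33 to 9.86 late and 8.39 to 9.36 early (0.22 ± 0.22). Without replicate 3 at 12 h these were 0.328 and 0.106. TRY, a small MYB protein that represses trichome fate, had 5.90 to 6.40 late and 5.74 to 6.22 early (0.06 ± 0.09). The median over the 5 was 0.22, with 0 called. In these bulk root samples, more cells of a type and more RNA per cell cannot be told apart.

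Of 6 measured genes of flavonoid synthesis, 4 had a negative difference, where 51.7% of all probe sets had a positive one, and none was called. UGT78D1, above, had the largest. CHIL, a chalcone isomerase-like protein that promotes flavonoid production, had levels of 8.88 to 9.80 late and 9.18 to 10.45 early, a difference of -0.51 ± 0.18 (95% interval -0.90 to -0.12). UGT78D2, a flavonoid glucosyltransferase, differed by -0.27 ± 0.14, whereas UF3GT, an anthocyanin glycosyltransferase, differed by 0.16 ± 0.10. The median over the 6 was -0.15, and 1 of them, CHI, is by its locus a chitinase that shares a symbol with chalcone isomerase. The list's median level per array was 7.91 to 8.26 late and 8.28 to 8.5 early, a description with no test. The abscisic acid and osmotic stress list had a median of -0.098 over 5 genes, led by the dehydrins LTI30 (-0.54 ± 0.17, with 11.42 to 11.91 late and 11.61 to 12.95 early) and COR47 (-0.28 ± 0.10). LTI30 was at -0.271 without replicate 3.

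The touch and early stress list differed between the pools in spread more than in level. Its 9 measured genes had a median difference of -0.037, with 4 above 0 and 0 called, but 7 of them had a larger standard deviation over the early arrays than over the late ones, against 44.7% of all probe sets, and 1 exceeded an SD of 0.5 late and 4 did early. WRKY22, an immune transcription factor, had 6.38 to 6.90 late and 6.6 to 9.20 early, a difference of -0.72 ± 0.32. Its highest early values were 9.20 and 7.83, both of replicate 3, and without replicate 3 the difference was -0.103. CML38, a calmodulin-like calcium sensor, had 6.68 to 7.49 late and 6.06 to 9.99 early, with its highest values in replicate 2 at 0.5 h (9.99) and replicate 3 at 0 h (9.55); its difference was -0.62 ± 0.57, and -0.166 without replicate 3. STZ, a zinc-finger repressor induced by many stresses, did otherwise, with 9.46 to 10.87 late and 8.64 to 11.37 early and a difference of 0.51 ± 0.41, or 0.931 without replicate 3.

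The mitochondrial and oxidative stress list had the lowest median of the 21 lists, and 2 of the 12 arrays lay apart in it. The median difference of its 10 measured genes was -0.39, with 2 above 0 and 0 called, and their differences ranged from -0.737 to 1.04. The median level of the list was 8.15 in replicate 3 at 12 h and 9.19 in replicate 3 at 0 h, against 10.30 to 10.80 on the other 5 late arrays and 10.28 to 10.87 on the other 5 early ones. AT2G21640, a member, had 7.86 and 9.22 on those 2 arrays and at least 9.97 on the other 10. Its difference, -0.74 ± 0.43 with all arrays, was -0.760 without replicate 3 at every time, -0.366 without replicate 3 at 12 h and -0.952 without replicate 3 at 0 h. NDB4, an alternative NADH dehydrogenase of the mitochondrial inner membrane, differed by -0.56 ± 0.37 and AT2G04050 by -0.68 ± 0.39, while AT5G04120 differed by 1.04 ± 0.43 (adjusted p = 0.655). Without replicate 3 at 12 h, NDB4 was at -0.348 and AT2G04050 at -0.394. The 2 arrays are those that stood apart over all probe sets. At the times between the pools, replicate 3 also had low list levels at 2, 4 and 8 h (9.22, 9.33 and 9.62), but 10.29 at 1 h. Replicate 2 had 9.53 at 2 h.

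Transcripts of the plastid and mitochondrial genomes had small negative medians. Of 69 measured plastid genes, 7 had a difference above 0, against 51.7% of all probe sets, and the median was -0.11. An unadjusted p under 0.05 was found for 8, all lower, where 3.53% of all probe sets were lower, and 0 were called (limma). Of 11 mitochondrial genes 1 was above 0, with a median of -0.14. At 4 and 8 h against 1 and 2 h most were instead above 0: 55 of the 69 and 9 of the 11, with medians of 0.092 and 0.021. Over all probe sets 13020 of 22739 were above 0 there. The photosynthesis list, mostly plastid genes of the photosystems, had 3 of 30 members above 0 and a median of -0.15, led by psbT, a small subunit of photosystem II (-0.53 ± 0.19, with 4.99 to 6.20 late and 5.25 to 7.09 early). RCA, the nuclear gene of rubisco activase, differed by -0.36 ± 0.22. Plastid messages mostly lack the long poly(A) tails that the 3′ labelling method primes on. The ribosomal protein list, 15 plastid genes and the cytosolic PGY1, had a median difference of -0.13, with 1 of 16 above 0. At 4 and 8 h against 1 and 2 h all 16 were above 0. The list separated the replicate numbers: its median level was 11.02, 9.87 and 8.79 for replicates 1, 2 and 3 at 12 h, and 10.96, 10.34 and 9.09 at 0 h.

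**Figure D2:**
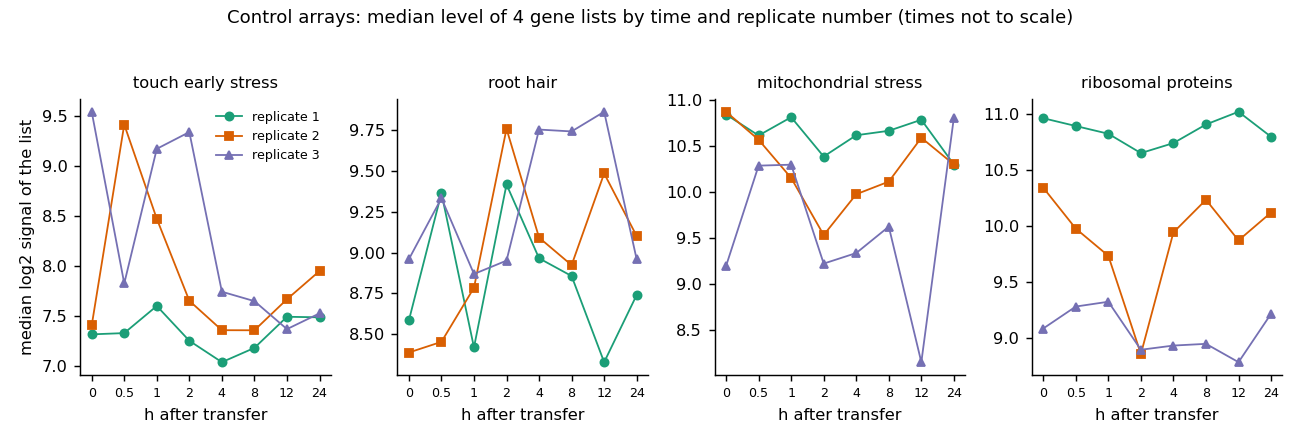
Median log2 signal (vertical axis) of 4 gene lists on each control array, by hours after transfer (times evenly spaced, not to scale) and replicate number. The ribosomal protein list keeps replicate 1 above 10 and replicate 3 below 10 throughout, the mitochondrial stress list drops on replicate 3 at 12 h to 8.15, and the touch list reaches 9.54 in replicate 3 at 0 h and 9.41 in replicate 2 at 0.5 h but stays at or below 7.95 from 4 h on.

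Hormone and nutrient genes differed by little. EIN3, the master transcription factor of ethylene signalling, had 9.62 to 9.99 late and 9.69 to 10.17 early (-0.09 ± 0.06). RTE1, which stabilises an ethylene receptor, differed by 0.09 ± 0.09, ETP2, an F-box protein that targets the ethylene signal carrier EIN2, by -0.21 ± 0.07, and ARL, a growth regulator of the ARGOS family, by 0.13 ± 0.13. Among 16 auxin response genes, with a median of -0.035, GH3.17, which conjugates auxin to amino acids, differed by 0.39 ± 0.12 and its relative GH3.3 by -0.52 ± 0.39. The GH3.3 value was -0.297 without replicate 3 at 12 h and turned to 0.146 without replicate 3 at every time. SWEET13 and SWEET14, sugar carriers, differed by 0.48 ± 0.19 and 0.26 ± 0.16, and BHLH101, an iron deficiency regulator, by 0.26 ± 0.24. GI, a clock-associated gene, had 8.67 to 8.86 late and 8.15 to 8.84 early (0.25 ± 0.12, adjusted p = 0.665); its mean was 8.28 ± 0.11 at 0.5 h and 8.77 ± 0.07 at 0 h (SD, n = 3 each). The cell cycle and histone list was the narrowest of the 21 in range, from -0.115 to 0.0884 over 8 genes, with the Aurora kinases AUR1 and AUR2 at -0.06 ± 0.08 and 0.06 ± 0.06. Of the remaining lists, heat shock, endoplasmic reticulum folding, glutathione transferases, sulfate, sugar starvation and glucosinolates had medians between -0.039 and 0.062, and the hypoxia and iron lists 0.11 and 0.16. Of the 3 genes matched to the phosphate list, LPR1 and LPR2, multicopper oxidases of the root's response to low phosphate, differed by -0.13 ± 0.09 and -0.18 ± 0.12, and the third, PS2, is by its locus a presenilin that shares a symbol with a phosphatase. Among the 27 families added later, which include 47 glycosyltransferases with a median of -0.0094 and 40 MADS-box genes with a median of 0.038, 0 members were called.

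**Figure D3:**
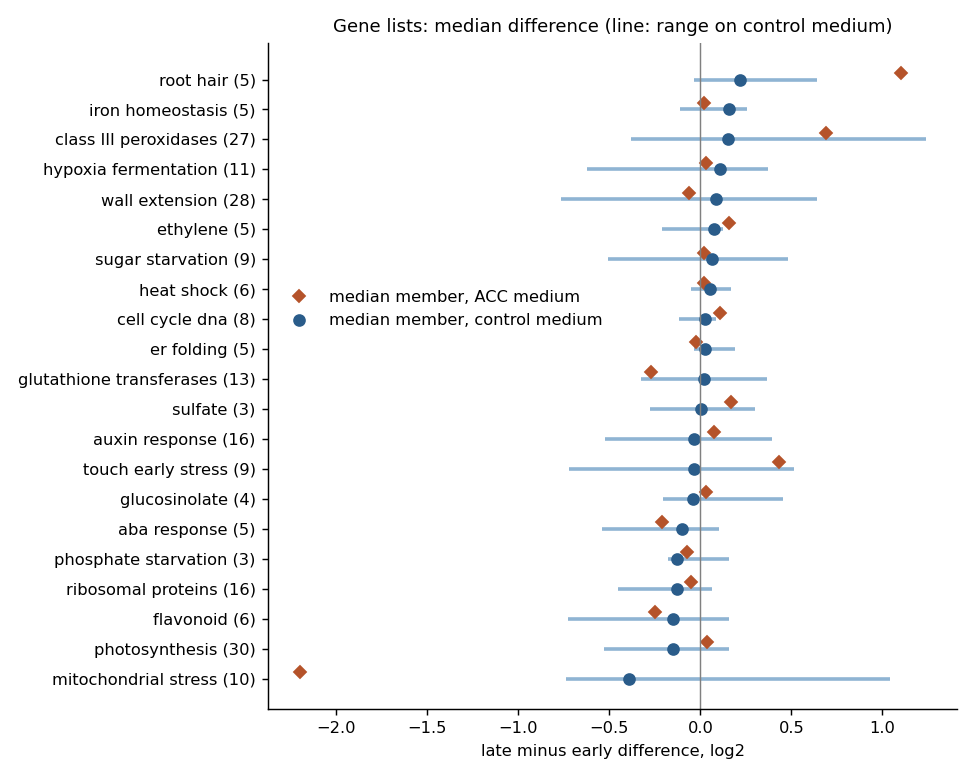
Median late minus early difference (horizontal axis, log2) of 21 gene lists on ACC medium (diamonds) and on control medium (circles, with a line from the lowest to the highest member), with the number of measured genes in brackets. On control medium the medians lie between -0.39 for mitochondrial stress and 0.22 for root hairs, and on ACC medium the same lists lie at -2.2 and 1.1.

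Within each pool no probe set was called between the times either, with only 3 arrays at each time. At 24 h against 12 h 0 probe sets were called (0%), with 658 at an unadjusted p under 0.05 (2.89%) and a lowest adjusted p of 0.999 in limma. At 0.5 h against 0 h 0 were called (0%), with 653 unadjusted (2.87%) and a lowest adjusted p of 1. Of the later control times, each set against 0 h in a fit of all 24 control arrays, none gave a call, and 24 h came closest, with 1305 probe sets at an unadjusted p under 0.05 and a lowest adjusted p of 0.226. A moderated F test over the 8 times called 0, with 984 unadjusted (4.33%). With no called probe set, the planned share of calls already past the midpoint at 1, 2, 4 and 8 h had nothing to count.

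Among the control arrays between the pools, a few genes fell by 4 and 8 h. This contrast was added after the data were seen. It set the 6 control arrays at 4 and 8 h against the 6 at 1 and 2 h, none of them in the late or early pool. It called 7 probe sets (0.0308%), all lower at 4 and 8 h and none higher, with 2526 at an unadjusted p under 0.05 (11.1%), and all 7 have a named gene.

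AT5G48430 fell most, with log2 signals of 7.10 to 7.96 at 4 and 8 h against 8.27 to 10.41 at 1 and 2 h, a difference of -2.07 ± 0.28 or 4.21-fold (adjusted p = 0.0384, limma). All 3 replicates were high at 1 h, at 10.41, 9.70 and 10.20, and no array of the 2 groups overlapped. Its mean was 8.39 ± 0.21 at 0 h, 10.11 ± 0.36 at 1 h, 7.46 ± 0.35 at 4 h and 8.39 ± 1.43 at 24 h (SD, n = 3 each), so the late and early pools differed by only -0.29 ± 0.36.

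AT5G43520 fell by 1.31 on the log2 scale (SE 0.15), AT2G44370 by 1.18 (SE 0.16), AT4G21870 by 1.07 (SE 0.14) and AT2G18690 by 1.06 (SE 0.15). AT1G53430 and AT5G24230 fell by 0.56 (SE 0.08) and 0.46 (SE 0.07). AT4G21870 had 6.3 to 6.58 at 4 and 8 h and 6.78 to 8.15 at 1 and 2 h, and its means at 12 and 24 h were both 6.47, against 6.89 ± 0.76 at 0 h. AT2G44370 and AT5G43520 had means of 7.84 ± 0.59 and 7.58 ± 0.77 at 24 h, and of 7.78 ± 0.39 and 7.34 ± 0.93 at 0 h; neither passed at 24 h against 12 h (adjusted p = 0.999 for both, limma). The adjusted p-values of the 7 lay between 0.0384 and 0.0442.

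These calls rest on few arrays. Without replicate 2 the contrast called 0 probe sets, without replicate 1 it called 38, and without replicate 3 it called 5; with no replicate block it also called 0.

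None of the touch and early stress genes passed this contrast, and their course differed between replicates. All 9 measured members had a negative difference at 4 and 8 h against 1 and 2 h, with a median of -0.34, and 5 had an unadjusted p under 0.05; 0 were called, and over all probe sets 13020 of 22739 had a positive difference. CML38 was lower by 1.3 (adjusted p = 0.0963) and WRKY22 by 1.24 (adjusted p = 0.147). WRKY22 had means of 7.51 ± 1.46 at 0 h, 8.12 ± 0.47 at 1 h and 6.52 ± 0.29 at 4 h (SD, n = 3 each). The list's median level was highest at 0 h in replicate 3 (9.54), at 0.5 h in replicate 2 (9.41) and at 1 h in replicate 1 (7.60). Per array it ran from 7.25 to 9.54 over the 12 arrays of 0 to 2 h, and from 7.04 to 7.95 over the 12 arrays of 4 to 24 h.

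A steady drift over the whole course was tested next, also after the data were seen. A straight line over the order of the 8 control times, in 24 arrays, called 17 probe sets (0.0748%), 10 higher with time (0.044%) and 7 lower (0.0308%), with 3195 at an unadjusted p under 0.05 (14.1%). It uses the arrays of both pools, so it is no independent support for the leading genes above. Among the 10 with a gene name, AT1G70880 rose by 0.15 ± 0.03 log2 units per step (adjusted p = 0.0413, limma), with means of 7.43 ± 0.06 at 0 h, 7.78 ± 0.44 at 2 h, 8.10 ± 0.72 at 8 h and 8.49 ± 0.32 at 24 h (SD, n = 3 each). AT4G14270 rose by 0.10 ± 0.02 per step (adjusted p = 0.0289), with means of 9.29 ± 0.37 at 0 h, 9.55 ± 0.26 at 4 h and 9.98 ± 0.08 at 24 h. AT4G31330, AT1G55265, AT5G60630 and AT2G22660 also rose, by 0.06 to 0.09 per step.

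Of those that fell with time, MSRB6 fell by 0.17 per step (SE 0.03), in one drop more than a line: its means were 9.24, 9.09, 9.22 and 9.08 at 0, 0.5, 1 and 2 h and 8.36, 8.33, 8.14 and 8.39 at 4, 8, 12 and 24 h. SD1-29 fell by 0.07 per step (SE 0.01), with means of 6.53 ± 0.23 at 24 h and 7.0 ± 0.23 at 0 h. AT5G14840 and AT1G29180 fell by 0.07 and 0.06 per step. The trend too rests on few arrays: without replicate 1 or without replicate 3 it called 0, without replicate 2 it called 24, and with no replicate block it called 1.

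**Figure D4:**
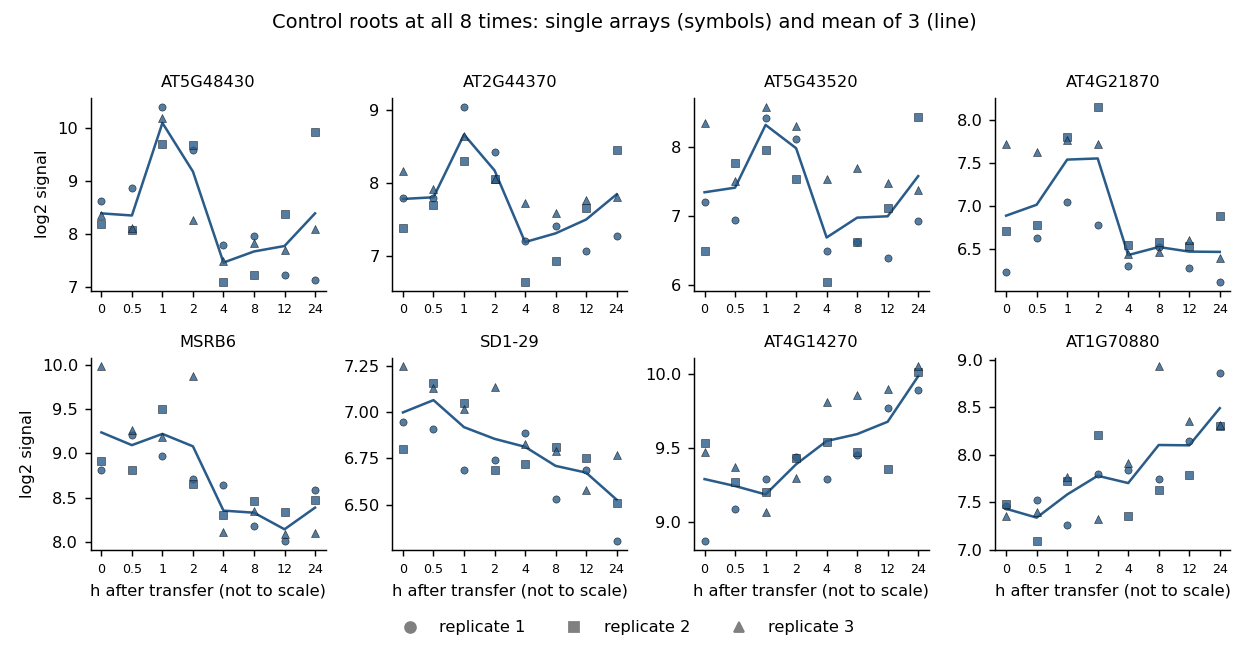
Log2 signal (vertical axis) of 8 genes in single control arrays (symbols, by replicate number) and as the mean of 3 (line), by hours after transfer (times evenly spaced, not to scale). The upper row shows 4 genes that passed the contrast of 4 and 8 h against 1 and 2 h, with the highest mean of AT5G48430 at 1 h (10.11), and the lower row 4 genes that passed the trend, with MSRB6 near 9 up to 2 h and near 8.3 from 4 h.

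The 2 contrasts within control roots ran partly together although they share no array. Over the 22739 probe sets, the late minus early difference and the difference of 4 and 8 h against 1 and 2 h had a Pearson r of 0.446 and a Spearman rho of 0.309, a correlation across genes, which are not independent replicates. Of the 100 probe sets with the lowest p for late against early, 87 had the same sign in the other contrast. Of the 100, 38 had the same sign and an unadjusted p under 0.05 there (limma). The share with the same sign over all probe sets was not counted, so the 87 has no background beside it. Most plastid genes went opposite ways in the 2 contrasts, with values given above.

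The same contrast on ACC medium gave far more calls at nearly the same precision. Its early pool includes roots 0.5 h on ACC, so a change already present by then makes the difference and the interaction smaller. ARL, for example, had means of 8.46 at 0 h and 10.55 at 0.5 h on ACC. Its ACC difference of 1.37 was not called (adjusted p = 0.0873, limma). With the same number of arrays and a median SE of 0.0902, against 0.0896 on control medium, 2639 probe sets were called in ACC roots (11.6%), 1196 higher (5.26%) and 1443 lower (6.35%). All 6 late ACC arrays lay above all 6 early ones for 650 probe sets (2.86%) and below them for 857 (3.77%). Leaving out replicates 1, 2 and 3 in turn gave 1229, 591 and 1726 calls. A log2 difference of 1 or more was reached by 506 probe sets on ACC and by 17 on control medium. The difference between the media was itself called, as an interaction in 24 arrays, for 702 probe sets (3.09%), 302 more positive (1.33%) and 400 more negative (1.76%) on ACC. That count was 133, 172 and 398 without replicates 1, 2 and 3, and 1808 with array weights.

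**Figure D5:**
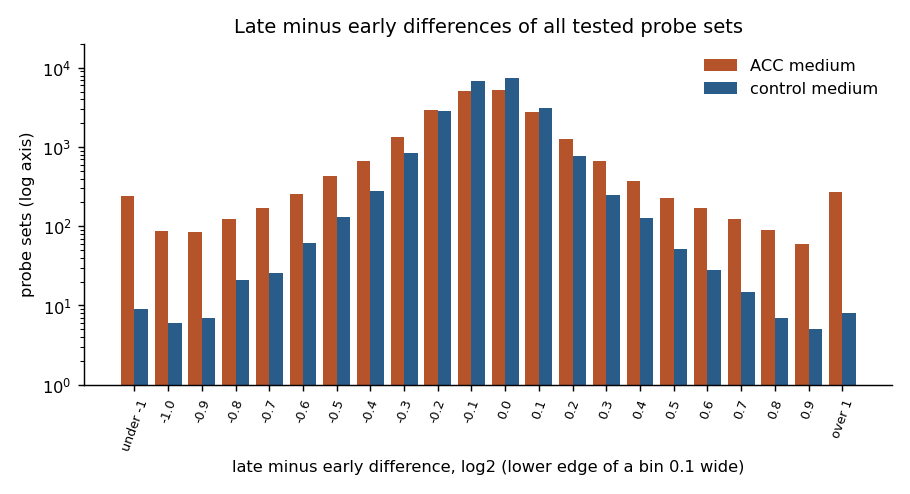
Number of probe sets (vertical axis, logarithmic) by late minus early difference (horizontal axis, log2, in bins of 0.1 with open ends) on ACC medium and on control medium. Beyond 1 on either side there are 506 probe sets on ACC medium and 17 on control medium.

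The genes with the largest positive interactions had small average differences in control roots. AT5G19890, in the list of class III peroxidases, had medians of 11.01 late and 6.39 early on ACC, and of 6.06 late and 6.00 early on control medium, where the difference was 0.25 ± 0.20 with a 95% interval of -0.19 to 0.69; its interaction was 4.61 ± 0.43 (adjusted p = 1.71e-06, limma). AT4G33720 differed by 4.38 on ACC and by 0.11 ± 0.08 on control medium, and AT4G39675 by 4.09 on ACC and 0.19 ± 0.24 on control medium. AT1G19530, in the hypoxia list, had 5.66 to 6.38 late and 5.39 to 6.20 early on control medium. AT1G49570, with an interaction of 3.65, varied more there, with 6.6 to 9.8 late and 7.2 to 9.59 early. Its control difference was -0.21 ± 0.45, with a 95% interval of -1.18 to 0.77. Without replicate 1 its interaction did not pass (adjusted p = 0.129, limma). Smaller interactions passed for XTH26 and RTE1, at 2.03 (adjusted p = 0.00103) and 1.11 (adjusted p = 0.000677, limma). Their control differences are given above, and on ACC they differed by 2.67 and 1.21.

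All 10 measured genes of the mitochondrial stress list fell on ACC, with a median of -2.2, where 6.35% of all probe sets were called lower. Of the 10, 6 had a more negative interaction, which 1.76% of all probe sets had. For AT2G21640 the interaction was -3.10 ± 0.61 (adjusted p = 0.00583), with levels of 6.58 to 8.42 late and 10.27 to 11.40 early on ACC and 7.86 to 10.98 late and 9.22 to 11.56 early on control medium. Without replicate 2 that interaction was -3.0 and did not pass (adjusted p = 0.15, limma). SWEET14 and BHLH101 had interactions of -2.27 and -1.75 and had ACC differences of -2.02 and -1.49.

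For 3 of the leading control genes, 12 higher and 12 lower, the interaction passed, where 3.09% of all probe sets passed. They were picked because their control arrays did not overlap, and the interaction uses those arrays, so a larger difference on control medium is partly fixed by that choice. AT1G70880 differed by -0.32 on ACC (adjusted p = 0.433) and by 0.91 on control medium, and the interaction of -1.23 passed the test (adjusted p = 0.0131, limma). SD1-29 differed by 0.16 on ACC and -0.43 on control medium, with an interaction of 0.59 (adjusted p = 0.0225). AT2G10490, annotated as a pseudogene, differed by 0.10 on ACC and -0.43 on control medium, with an interaction of 0.53 (adjusted p = 0.015, limma). Its control signals were low, at 4.37 to 4.92 late and 4.95 to 5.42 early. For MSRB6 and UGT78D1 the ACC differences were -0.62 and -1.07, of the same sign as on control medium, with interactions of 0.27 (adjusted p = 0.777) and -0.34 (adjusted p = 0.697) that did not pass; UGT78D1 passed on ACC (adjusted p = 0.0069).

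Across all probe sets the control difference leaned the way of the ACC difference, with a Pearson r of 0.336 and a Spearman rho of 0.275 across genes and no array shared. Of 1196 probe sets higher on ACC, 70.8% had a control difference above 0, with a median of 0.069. Of 1443 lower on ACC, 30.2% had one, with a median of -0.077. Over all probe sets 51.7% had a control difference above 0. The 95% interval of the control difference lay within 1 log2 unit of 0 for 94.6% of the higher and 97.6% of the lower ones. That share was 98.7% over all probe sets, so it was smaller in both sets.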

How the data were processed

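RNA from Arabidopsis roots was labelled by a method that primes at the 3′ end and hybridised to Affymetrix arrays, per the labels' protocols. The authors deposited 1 table of probe set values, taken here as log2 from their range; the sources used here give neither log base nor probe summary nor normalization. Array means were all about 7.70, so differences are relative to the average probe set. Of 22810 probe sets, 64 controls and 7 with an exact 0 were left out. Of those that are not controls, 13513 have 1 gene symbol, 503 several and 8730 none listed; symbols were updated for 13436 through a RefSeq table (TAIR10.1), and most carry only a locus code.

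Differences were fitted with limma 3.58.1 in R 4.3.3 (lmFit and eBayes, 8 residual degrees of freedom) with replicate number as a block, as the comparison was set up, and tested on simulated data. Whether numbers pair the samples was checked from deviations of late and early arrays with the same number, which correlated at 0.152, 0.313 and 0.591 for numbers 1, 2 and 3. By every pair being over 0.1 they were taken as paired, although late 1 with early 2 (0.153) and late 2 with early 1 (0.272) were about as high, and only number 3 stood apart. Permutation tests used SciPy 1.17.1. Where a gene had several probe sets, the brightest on average stood for it. The members and the gene lists were chosen with earlier results of these data known. Of 29 lists, 21 had at least 3 measured genes. Another 27 families were added once it was known which symbols are measured. Genes are named for a call with no overlap (none qualified), as the up to 4 largest differences of a list, as the 5 largest interactions each way, or as 15 fixed genes, of which GI, EXPA7, ARL and EIN3 were measured; others were chosen after their values were seen. Alternatives were other normalizations, a filter on dim probe sets (above the 40th percentile of 3 arrays), array weights, a robust prior, a minimum difference of 1, no block, all 48 arrays, a GAPDH covariate and arrays, times or replicates left out. In the 48-array fit 1 array of the 1 h ACC group carries auxin in its source name. Counting promoter motifs was not done here.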

Additional observations from a re-analysis of the deposited data

Results flagged for a closer look

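In 20 of 220 sets of 6 late or 6 early control arrays, 1 array of a named gene lay far from the others; chance gives about 1 in 20 such sets. Replicate 3 at 12 h was low in late roots for AT2G21640 (7.86, the others 9.97 to 10.98), AT5G09570 (8.43), AT5G51440 (7.75) and CHIL (8.88), and replicate 3 at 0 h was low in early roots for AT2G21640 (9.22), AT5G09570 (9.80) and UGT78D2 (9.04) and high for APS4, an ATP sulfurylase (9.66, the others 8.38 to 8.64). Replicate 2 at 12 h was high for AT1G49570 (9.80), AT5G19890 (7.41) and GH3.3 (8.93) and low for EXLA1 (9.29). Replicate 2 at 0 h was high for AT1G49570 (9.59) and for RCA (9.03, the others 7.65 to 7.86). Replicate 2 at 24 h was low for AGL62 (5.68) and AT5G48570 (6.99) and high for AT3G47540 (10.40). Replicate 1 at 24 h was low for HTR12, the centromeric histone H3 (6.82), and replicate 1 at 0 h was high for AT5G58900 (9.48) and AT4G33720 (5.98).

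The late minus early difference depended on the medium for 702 probe sets by the interaction term. Among named genes it was more positive on ACC than on control medium for AT5G19890 (4.61), AT4G33720 (4.27), AT4G39675 (3.89), AT1G49570 (3.65) and AT1G19530 (3.37), and more negative for AT2G21640 (-3.10), AT5G04120 (-3.02), AT5G66815 (-2.58), AT5G09570 (-2.57) and AT5G51440 (-2.32). AT5G04120 had a positive control difference, 1.04, and a negative one on ACC, -1.98.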

How the results depend on the processing

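The absence of calls between late and early control roots held in 28 of 31 alternatives, among them no replicate block (0 calls, lowest adjusted p = 0.218), all 48 arrays (lowest 0.0589) and 24 h against 0 h alone. The exceptions were 6 calls without the arrays of 0 h and 17 for the trend, added later. Leaving out each replicate number or array gave between 0 and 1 call. The cause was not tested. Of the 6, AT5G19970 (0.89 ± 0.09) and AT5G19110 (-1.26 ± 0.13) have a gene name. The others were all lower late, by differences from -1.4 to -1.98. List members called were 0 throughout. Of 124 named genes, 86 kept the sign of their control difference in every alternative and the others changed it only where neither value passed. The contrasts of 24 h with 12 h and of 0.5 h with 0 h gave 0 calls in each alternative run. Without replicate 3, however, 2578 and 1777 probe sets had an unadjusted p under 0.05 in them. The lowest adjusted p was then 0.386 and 0.307 (limma). For 4 and 8 h against 1 and 2 h, counts were 0 with no replicate block, 26 with the filter, 17 with the intensity trend and robust prior, 3 with array weights and 0 to 38 without a replicate. The trend gave 1 with no replicate block, 45 with array weights and 0 to 24 without a replicate. Leaving out a replicate gave 591 to 1726 calls on ACC and 133 to 398 interactions; array weights gave 1808 interactions, and no replicate block 690. Of the 10 named interactions 5 passed in every alternative; AT2G21640 did not without replicate 2, AT1G49570 without replicate 1, AT5G04120 and AT5G09570 without replicate 1 or 2, and AT5G51440 without any one replicate or with the robust prior.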

Other observations

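Spread over arrays differed between the pools for some gene groups. Over all probe sets the median standard deviation over 6 arrays was 0.176 late and 0.163 early, and an SD above 0.5 was found for 573 probe sets late and 845 early. All 5 measured root hair genes varied more over the late arrays, with a median SD of 0.541 late and 0.378 early, and the ribosomal protein list, nearly all plastid genes, had 0.702 late and 0.547 early. The touch and early stress list ran the other way, with 0.269 late and 0.496 early. These are descriptions with no test.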
